A study of Zea mays with 20 samples.

Results

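The lipoxygenases of the maize ear internode were taken as all probe sets that the platform annotation assigns to a gene whose RefSeq symbol or synonym is lox followed by a number, with a log2 value above 5 in at least 2 of the 20 arrays. This gave 2 genes, lox3 and lox1, of the 1108 genes that the annotation names. lox3 (gene 542495, chromosome 1) was measured by 1 probe set. lox1 (gene 541856, chromosome 3) was measured by 2 probe sets of the same cluster, whose identifiers end in _at and _x_at. All 3 probe sets passed the level filter, lox1 in 20 of 20 arrays and lox3 in 17, and the arrays in which lox3 stayed under 5 were 3 of the 4 of line RIL99. Raising the level to 6 or lowering it to 4 kept the same number of probe sets, 3. RefSeq lists 12 maize genes with a lox symbol or synonym, and the other 10 had no probe set named in the annotation and were not analysed here. lox3 was known beforehand to be higher in RIL39 and RIL71 than in RIL99 and RIL54, so its values in that comparison are a description and carry no test.

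The samples were total RNA of the ear internode, a segment of the stem at the ear, from plants grown in an irrigated field without any treatment. The 5 recombinant inbred lines (RIL) descend from the cross of F288 and F271 and were chosen by their alleles at 4 quantitative trait loci (QTL) for lignin content and cell wall degradability. RIL39 and RIL71 carry the unfavorable allele at the bin 6.06 locus, RIL118 carries it at the bin 9.02 locus, and in RIL99 and RIL54 all 4 loci have the favorable allele. Each line was harvested at early silking and at emerging tassel, with 2 arrays per line and stage. An allele class here is 1 or 2 lines, and lines of a cross also differ elsewhere in the genome, so a difference between classes cannot be told apart from a difference between those lines. The labels do not say whether the 2 arrays came from separate plants, and the SE and p-values below measure only the spread between such arrays. In a piece of stem, fewer cells of a type and less RNA per cell cannot be told apart.

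Lipoxygenases insert oxygen into linoleic and linolenic acid and so open the pathways of the oxylipins, a family of signal and defence compounds. Depending on the carbon they oxidise, their products feed either the jasmonates and leaf volatiles, or ketols and other compounds made in infected and wounded tissue. In maize, lox3 encodes an enzyme of the second kind, studied for its part in the interaction with fungi and nematodes, and the lox1 enzyme has been described with a mixed specificity. Neither gene lies on chromosome 6 or 9, which hold bins 6.06 and 9.02, whose alleles set the classes here. The lines also differ elsewhere in the genome, and whether they differ at lox1 or lox3 was not tested. In the RefSeq gene order, lox3 lies beside lox4 and lox1 beside lox2, with 0 genes between the members of either pair. These neighbours are close relatives in sequence, and a probe set named for one may also take up transcripts of the other, a part of the signal that was not tested. The suffix x_at marks a probe set that the manufacturer expected to match further transcripts.

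The level of lox3 depended most on the line, with RIL99 at the bottom. In RIL99 it had log2 values of 5.47 and 4.73 at early silking and 4.27 and 3.69 at emerging tassel. In RIL54 they were 5.97 and 5.67 at silking and 7.05 and 7.12 at tassel. All 4 RIL99 arrays lay below the other 16. RIL39 had 7.04 and 7.05 at silking and 7.12 and 7.39 at tassel, the narrowest spread of the 5 lines. RIL71 had 7.64 and 7.05 at silking and 8.80 and 7.15 at tassel. RIL118 had 7.80 and 7.94 at silking and 8.42 and 6.72 at tassel. The tassel pairs of RIL71 and RIL118 thus lay 1.65 and 1.69 log2 units apart, against 0.02 to 0.74 in the other 8 groups.

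**Figure D1:**
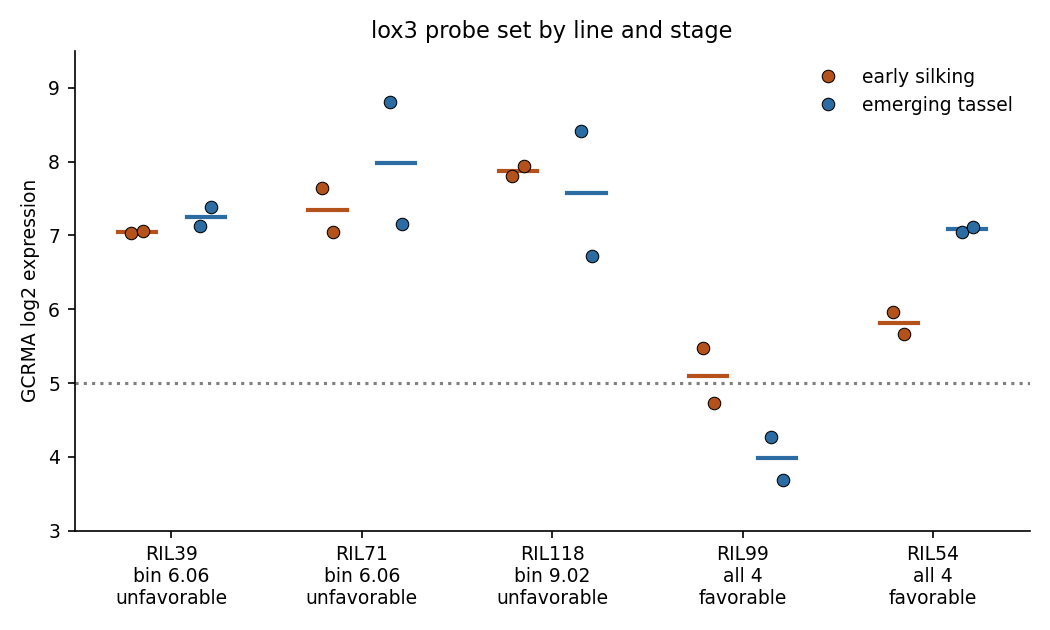
Expression of the lox3 probe set (GCRMA log2, vertical axis) in each array (points), with the mean of each line and stage (bars), for the 5 lines on the horizontal axis. The dotted line marks the level of 5. The RIL99 arrays lie between 3.69 and 5.47, below every array of the other lines, and RIL54 is low at early silking but near RIL39 at emerging tassel.

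From low to high, the group means of lox3 were 3.98 in RIL99 at tassel, 5.10 in RIL99 at silking and 5.82 in RIL54 at silking. The ranges of these 3 groups did not overlap each other or any higher group. Next came RIL39 at silking (7.05), RIL54 at tassel (7.08), RIL39 at tassel (7.25), RIL71 at silking (7.34), RIL118 at tassel (7.57), RIL118 at silking (7.87) and RIL71 at tassel (7.98). In that upper set every neighbour's range overlapped the next, except that both RIL54 tassel arrays lay just below both RIL39 tassel arrays. Groups further apart in the order could still be separate, as RIL118 at silking (7.80 and 7.94) lay above all arrays of RIL39, of RIL54 and of RIL71 at silking.

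Over both stages, lox3 averaged 7.41 ± 0.60 in RIL39 and RIL71 and 5.50 ± 1.23 in the favorable lines RIL99 and RIL54 (SD, n = 8 each). The difference of the fit was 1.91 on the log2 scale, or 3.76-fold (SE 0.27). It was in view when lox3 was chosen and is given without a test. Across all tested probe sets 18.3% were called in this comparison, where called means an adjusted p under 0.05. As part of the same description, each of the 8 pairings of an unfavorable with a favorable line within a stage gave a higher mean in the unfavorable line. In 8 of 8 the ranges did not overlap. These pairings reuse the same group means and are not separate results. The smallest difference of means, 0.17, was RIL39 against RIL54 at tassel, where the nearest arrays of both lines had 7.12. The largest was RIL71 against RIL99 at tassel, with means of 7.98 in RIL71 and 3.98 in RIL99. The size depended on which favorable line was used, since the difference was 0.95 without RIL99 and 2.86 without RIL54. It was 1.74 at silking and 2.08 at tassel, and the change with stage (-0.35, SE 0.54) had an adjusted p of 0.843 in limma. In that class by stage term 0.807% of probe sets were called.

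RIL118, whose unfavorable allele is at the other locus, had lox3 at 7.72 ± 0.72 (SD, n = 4), and the favorable lines at 5.50 ± 1.23 (SD, n = 8). The difference was 2.23 log2 units, or 4.68-fold (SE 0.33, adjusted p = 0.000532 in limma), in a comparison that called 20.7% of all probe sets and 11.7% of all probe sets upward. This comparison uses the same 8 arrays of RIL99 and RIL54 as the one for which lox3 was chosen, so its p is not independent evidence. RIL118 was higher in 4 of 4 pairings, by 0.48 to 3.59, and its range stood apart from the favorable line's in 3 of them. The exception was RIL54 at tassel, where the RIL118 arrays of 8.42 and 6.72 lay on either side of the RIL54 arrays. Leaving out the lower or the higher of those RIL118 arrays gave 2.65 and 1.80, both called. Without RIL99 the difference was 1.27 (adjusted p = 0.0562), no longer past the threshold. RIL118 minus the mean of RIL39 and RIL71 was 0.68 at silking, where both RIL118 arrays lay above every array of those lines. At tassel it was -0.05, with overlapping ranges. This contrast was not tested. The RIL118 difference changed by 0.38 with stage (SE 0.66, adjusted p = 0.765), where 7.84% of probe sets were called.

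Leaf markers differed between the same lines. The summed signal took in the 6 leaf photosynthesis genes with a probe set, 5 of them detected. It ran from 15.10 to 15.99 on the log2 scale in RIL39 and RIL71 and from 14.38 to 15.46 in RIL118. In RIL99 and RIL54 it ran from 15.02 to 15.68. Against the favorable lines, pep1 (2.76, adjusted p = 0.011), ssu1 (0.43, adjusted p = 0.0412) and 2 of the 4 Ppdk1 probe sets (1.15 and 1.19, adjusted p = 0.0488 and 0.0467) were higher in the bin 6.06 lines. In RIL118, Cab-m7 (-0.49, adjusted p = 0.0259), all 3 lhcb6 probe sets (-0.97 to -0.71) and 1 Ppdk1 probe set (-0.84, adjusted p = 0.00628) were lower. Of the other lists, ocl3, an epidermal gene, was lower in the bin 6.06 lines (-0.92, adjusted p = 0.0395) and bk2 of the secondary wall higher in RIL118 (1.45, adjusted p = 0.00937), and no other marker was called in either comparison. The part of these tissues in the lox3 differences was not tested.

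Among lines with the same alleles at the 4 loci, RIL54 exceeded RIL99 in lox3 by 1.91 log2 units (SE 0.38, adjusted p = 0.00451 in limma), where 16% of probe sets were called. The gap was 0.72 at silking (means 5.82 in RIL54 and 5.10 in RIL99) and 3.10 at tassel (7.08 in RIL54 and 3.98 in RIL99). This difference between both favorable lines was as large as that between the bin 6.06 lines and the favorable lines. RIL71 and RIL39, which share the unfavorable bin 6.06 allele, averaged 7.66 ± 0.80 and 7.15 ± 0.16 (SD, n = 4 each). Their difference of 0.51 (SE 0.38) had a 95% interval of -0.32 to 1.34 and an adjusted p of 0.383, where 16.6% of probe sets were called.

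lox3 showed no change with stage that all lines shared. It averaged 6.64 ± 1.10 at early silking and 6.77 ± 1.61 at emerging tassel (SD, n = 10 each). The stage difference was -0.14 (SE 0.24, 95% interval -0.66 to 0.39, adjusted p = 0.627). Stage was the strongest contrast in the table, with 67.7% of probe sets called. The sign of the lox3 difference was not stable, being 0.15 without RIL54, 0.03 without the first RIL71 tassel array and 0.03 without the first RIL118 tassel array. Within lines the difference was 1.12 in RIL99 (SE 0.54, adjusted p = 0.11) and -1.27 in RIL54 (adjusted p = 0.084). It was -0.63 in RIL71, -0.21 in RIL39 and 0.30 in RIL118. None of the 5 was called, where the share of all probe sets called ran from 11.7% in RIL118 over 27.1% in RIL39, 32.8% in RIL71 and 36.9% in RIL54 to 45.2% in RIL99. In RIL99, RIL54 and RIL39 the silking and tassel arrays did not overlap, upward in RIL99 and downward in RIL54 and RIL39. In RIL54 the tassel arrays stood more than 1 log2 unit above the silking arrays. That comparison passed the threshold with the replicate number as a block (adjusted p = 0.0486), and when either RIL71 tassel array (0.0427) or either RIL118 tassel array (0.0393) was left out. The test of a stage change that differs between lines gave an F of 2.82 with an adjusted p of 0.243, where 6.15% of probe sets were called.

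**Figure D2:**
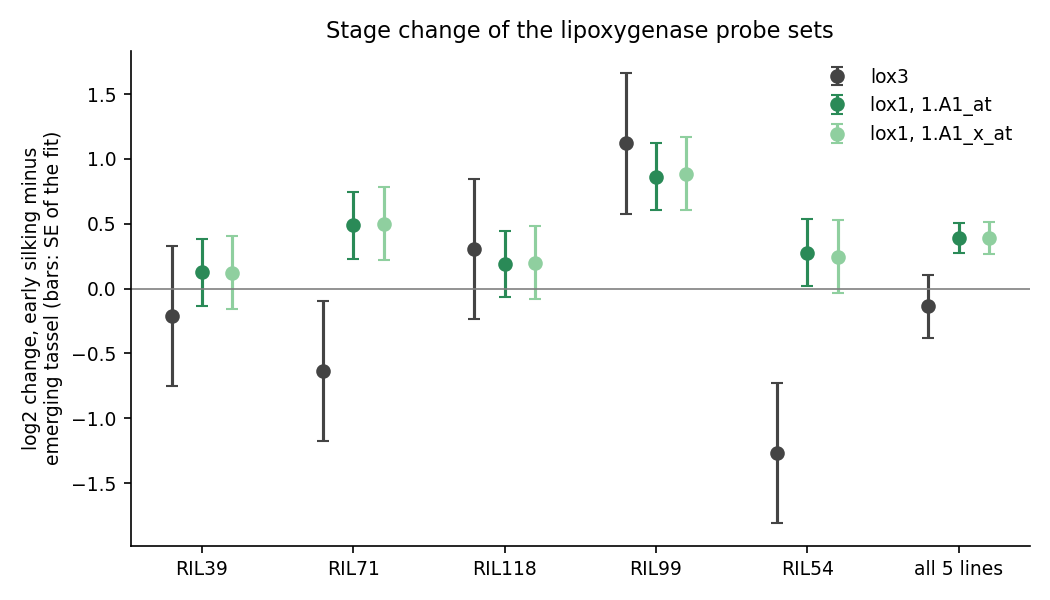
Log2 difference of early silking minus emerging tassel (vertical axis) for the lox3 probe set and both lox1 probe sets, in each line and over all 5 lines; bars are the SE of the fit. lox3 lies at 1.12 in RIL99 and -1.27 in RIL54, while lox1 is above 0 in every line and highest in RIL99 (0.86 and 0.89).

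lox1 was high in every array and varied within a narrow range. Its _at probe set ran from 12.37 to 14.10 over the 20 arrays, with a median of 13.25, and its _x_at probe set from 11.80 to 13.74. The probe sets moved together across arrays (r = 0.99 over 20 arrays that both share, a description), with the first above the second by 0.35 to 0.57. In RIL39 the first probe set had 13.77 and 13.21 at silking and 13.29 and 13.43 at tassel. In RIL71 it had 13.59 and 14.10 at silking and 13.68 and 13.03 at tassel, and in both of these lines the stages overlapped. In RIL118 it had 13.25 and 13.16 at silking and 12.86 and 13.17 at tassel, again with overlap. RIL99 had 13.41 and 13.32 at silking and 12.63 and 12.37 at tassel, and RIL54 had 13.25 and 13.69 at silking and 13.15 and 13.23 at tassel. The stages stood apart in RIL99 by a wide margin and in RIL54 barely, and the RIL99 tassel arrays were the lowest of all 20.

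**Figure D3:**
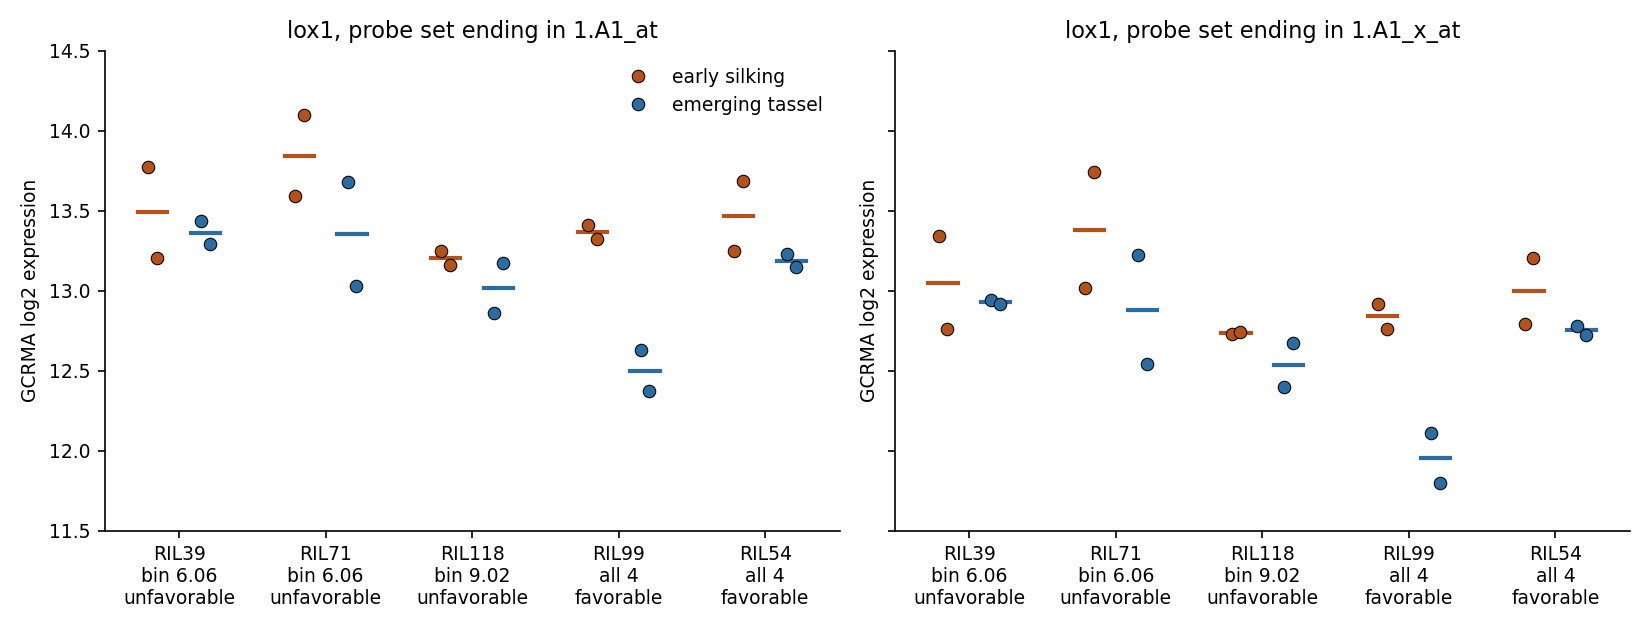
Expression of the lox1 probe sets (GCRMA log2, vertical axis, not starting at 0) in each array (points), with the mean of each line and stage (bars). Both panels show the same order of groups at the ends, with RIL99 at emerging tassel lowest (means 12.50 and 11.95) and RIL71 at early silking highest (13.84 and 13.38).

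Of the 10 group means of the lox1 _at probe set, only the lowest, RIL99 at tassel (12.50 ± 0.19, SD, n = 2), had a range that did not overlap that of its neighbour in the order, RIL118 at tassel (13.02 ± 0.22). The means of the other 9 groups lay between 13.02 and 13.84, and each overlapped the next.

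lox1 rose at early silking. Its _at probe set averaged 13.47 ± 0.30 at silking and 13.09 ± 0.38 at tassel (SD, n = 10 each). This was 0.39 higher, or 1.31-fold (SE 0.12, adjusted p = 0.0094 in limma), with a higher mean in 5 of 5 lines. The _x_at probe set had the same difference of 0.39 (SE 0.13, adjusted p = 0.0147). The background was large, since 40.9% of all tested probe sets were called higher at silking, and the median difference of all of them was 0.12. After centring each array on its median the lox1 difference was 0.34 (adjusted p = 0.0191). RIL99 had the largest rise of the 5 lines, and without it the difference was 0.27 (adjusted p = 0.115) and no longer called. With the RNA amount of the labels as a covariate it was also 0.27 (adjusted p = 0.222). Those amounts were 53.001 to 201.72 ng at silking (median 70.862) and 113.41 to 417.25 ng at tassel (median 137.88). The ranges overlapped, but most silking amounts lay below the lowest tassel amount. A fit with this covariate therefore cannot tell stage and RNA amount apart.

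Within RIL99 the lox1 rise was 0.86, or 1.82-fold (SE 0.26, adjusted p = 0.0159), for the _at probe set and 0.89 (SE 0.28, adjusted p = 0.0215) for the _x_at probe set, where 27.3% of all probe sets were called upward. This call rested on 2 arrays a stage. It was lost without the second tassel array (0.73, adjusted p = 0.093), without the first silking array (0.82, adjusted p = 0.0798) and without the second silking array (0.91, adjusted p = 0.0535). In the other lines the difference was 0.49 in RIL71, 0.28 in RIL54, 0.19 in RIL118 and 0.13 in RIL39, and none was called. That RIL99 differed from them was not shown, as the line by stage term for lox1 had an adjusted p of 0.53.

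Marker genes of other tissues are given here beside the stage change of lox1. The summed signal of 4 secondary wall genes (cesa10, cesa11, CesA12 and bk2) ran from 11.72 to 14.47 on the log2 scale at silking and from 14.59 to 15.42 at tassel. That of the 6 epidermis and cuticle genes with a probe set, 4 of them detected, averaged 10.11 at silking and 11.43 at tassel. That of the 6 leaf photosynthesis genes, 5 of them detected, averaged 15.41 at silking and 15.44 at tassel. The 2 meristem genes averaged 11.30 at silking and 10.75 at tassel. The 3 kernel genes with a probe set, 2 of them detected, averaged 8.36 at silking and 8.70 at tassel. Their part in the lipoxygenase values was not tested.

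Between allele classes, the lox1 _at probe set averaged 13.51 ± 0.34 in RIL39 and RIL71 and 13.13 ± 0.43 in RIL99 and RIL54 (SD, n = 8 each). The gap of 0.38 (SE 0.13, adjusted p = 0.0574 in limma) did not pass the threshold. The mean was higher in 8 of 8 pairings of lines within a stage, by 0.02 to 0.86, but the ranges stood apart in only 4. It was called after quantile normalization (adjusted p = 0.0449), with a trended prior (0.046) and without RIL54 (0.58, adjusted p = 0.0266). It was also called without the second RIL71 tassel array (0.0207), the first RIL71 silking array (0.0396), the second RIL54 silking array (0.0443) or the second RIL39 silking array (0.033). RIL118 averaged 13.11 ± 0.17 (SD, n = 4), a difference from the favorable lines of -0.02 (SE 0.16, 95% interval -0.36 to 0.32, adjusted p = 0.945). RIL54 minus RIL99 was 0.39 (SE 0.18, adjusted p = 0.171) and RIL71 minus RIL39 was 0.17 (SE 0.18, adjusted p = 0.54). The correlation of lox1 with lox3 over the 20 arrays was 0.42, and over the 16 arrays without RIL99 it was -0.16. Both are descriptions of arrays that share groups.

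The enzymes around lipoxygenase were followed in a list of oxylipin genes, 13 of which had a probe set and 11 of which passed the level filter. opr3, a reductase, and ts2, the tasselseed gene of sex determination in the tassel, stayed between 1.88 and 3.12 in every array. With stage, 3 of the 11 genes were called higher at silking, 4 lower and 4 not at all. The share over the whole table was 40.9% higher and 26.8% lower. The median difference of the 11 genes was -0.62, against 0.12 for all tested probe sets. Each gene was counted by its probe set with the highest mean.

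Upstream of lipoxygenase, PLD1, a phospholipase D, fell by 0.80 at silking (SE 0.19, adjusted p = 0.00267) and was lower in 5 of 5 lines. FAD8 and fad7 are plastid desaturases that make linolenic acid, the substrate. FAD8 fell by 1.02 (SE 0.41, adjusted p = 0.0434), a call lost in 22 of 31 processing alternatives, with a difference between RIL118 tassel arrays of 3.53, and the fad7 difference of -0.63 was not called (adjusted p = 0.0631). Downstream, hpl1, the hydroperoxide lyase that cuts lipoxygenase products into leaf aldehydes, fell by 1.04 (SE 0.32, adjusted p = 0.0113), and aos1, the allene oxide synthase that commits them to jasmonate, by 0.62 (SE 0.23, adjusted p = 0.0292). Both were lower in 5 of 5 lines, and the hpl1 call was lost without RIL54 (-0.86, adjusted p = 0.0593) and the aos1 call in 13 of 31 alternatives.

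The next enzyme of jasmonate synthesis, allene oxide cyclase, gave opposite answers by probe set. The aoc1 probe set ending in S1_at fell by 0.78 (SE 0.07, adjusted p = 1.68e-06) and its stages stood apart in 5 of 5 lines, for example 9.54 and 9.64 in RIL99 at silking and 10.36 and 10.63 in RIL99 at tassel. The probe set ending in A1_at, assigned to the same gene and used for its count, was higher at silking by 0.54 (SE 0.13, adjusted p = 0.0032). That rise came mainly from RIL99, with 10.15 and 10.19 at silking and 7.75 and 8.70 at tassel, and without RIL99 it was 0.19 (adjusted p = 0.221). Its stage change differed between lines (F of 7.59, adjusted p = 0.0443). No direction for aoc1 can be given from both. Among the oxophytodienoate reductase genes, opr8, which acts in jasmonate synthesis, was higher by 0.17 (SE 0.07, adjusted p = 0.0435), a call lost in 21 of 31 alternatives. Its partner opr7 did not pass (-0.06, adjusted p = 0.337). opr5 rose by 0.50 (SE 0.14, adjusted p = 0.00754), and opr1, whose RIL118 tassel arrays lay 5.77 apart, had a difference of -1.52 (SE 0.76, adjusted p = 0.0906). myc7, a transcription factor gene of the MYC type, had -0.14 (adjusted p = 0.597). With RNA amount as a covariate 0 of the 11 genes were called in either direction by the counted probe set, while the S1_at probe set of aoc1 still was (-0.83, adjusted p = 0.000172).

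**Figure D4:**
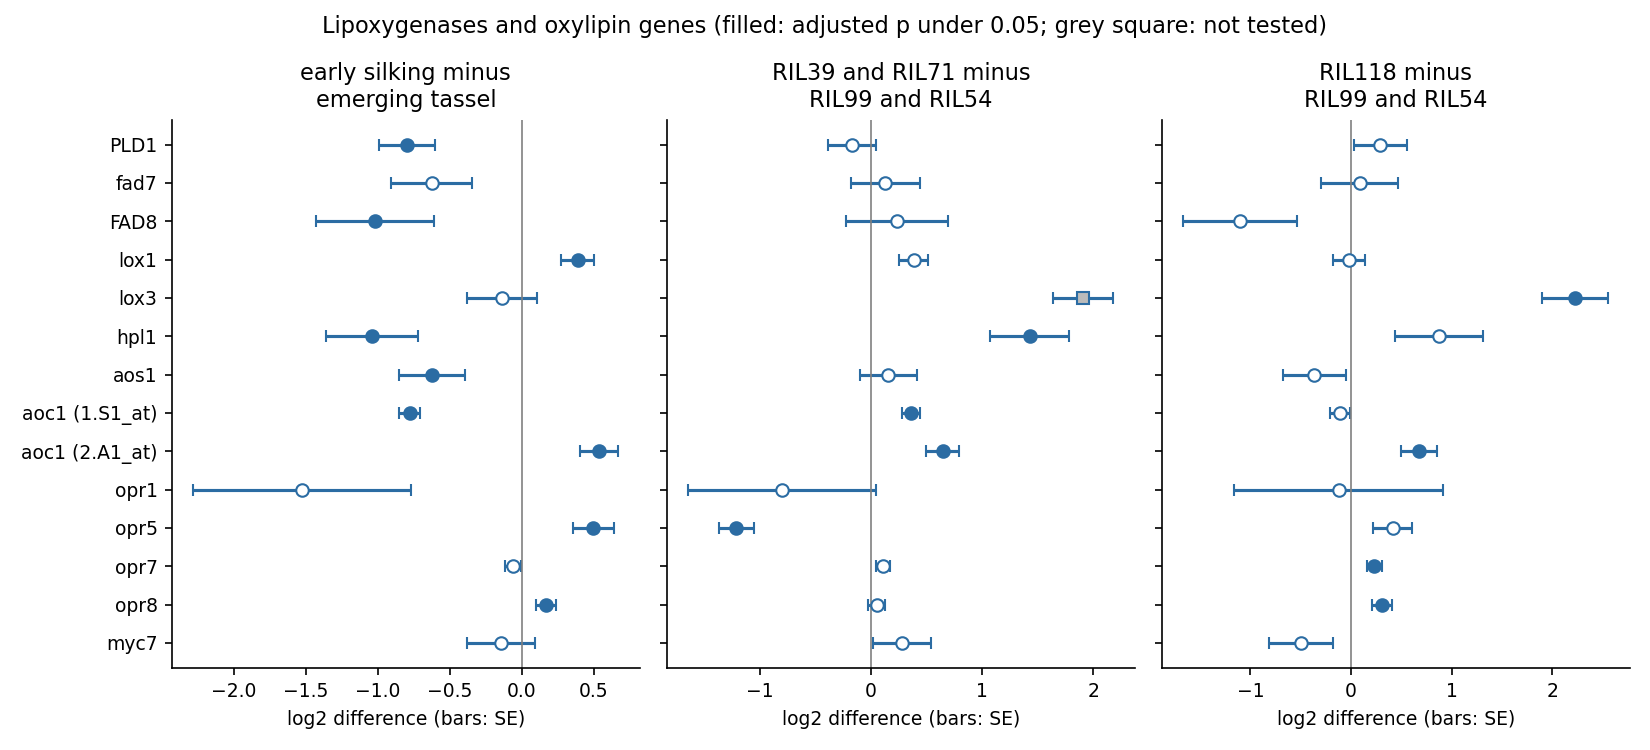
Log2 differences (horizontal axes) of lox1, lox3 and the genes of the oxylipin list for early silking minus emerging tassel, for RIL39 and RIL71 minus the favorable lines, and for RIL118 minus the favorable lines; bars are the SE of the fit. Filled points passed an adjusted p of 0.05; the grey square of lox3 was not tested. The lox3 differences of 1.91 and 2.23 are the largest upward ones of the bin 6.06 and RIL118 panels. lox3 was chosen with the first known, and both panels use the same RIL99 and RIL54 arrays, so this rank is a description only. In the stage panel most genes other than lox1, opr5, opr8 and the second aoc1 probe set lie below 0.

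In the bin 6.06 comparison 2 of the 11 oxylipin genes were called higher and 1 lower, with a median of 0.13, against -0.02 for all probe sets, of which 9.91% were called higher and 8.43% lower. hpl1 was higher in RIL39 and RIL71 by 1.43 log2 units, or 2.69-fold (SE 0.36, adjusted p = 0.0139). Its array values in RIL39 were 7.09 and 7.97 at silking and 8.76 and 8.82 at tassel, and in RIL71 they were 6.34 and 6.89 at silking and 7.20 and 8.54 at tassel. In RIL99 it had 4.89 and 5.60 at silking and 4.84 and 6.73 at tassel, and in RIL54 5.60 and 6.71 at silking and 7.61 and 8.20 at tassel. As for lox3, the arrays of RIL99 were low, and without that line the hpl1 difference was 0.67 (adjusted p = 0.295). aoc1 was higher on both probe sets, by 0.64 (SE 0.15, adjusted p = 0.00914) for the A1_at probe set and by 0.36 (SE 0.08, adjusted p = 0.00701) for the S1_at probe set. Without RIL99 the first was 0.13 (adjusted p = 0.613), and without RIL54 the second was 0.24 (adjusted p = 0.123). opr5 was lower by 1.21 (SE 0.16, adjusted p = 0.000137), and without RIL99 by 0.65 (adjusted p = 0.0699). The bin 6.06 lines differed from each other by more, with RIL71 minus RIL39 at 1.91 (SE 0.22, adjusted p = 7.35e-05). RIL39 had 7.60 to 8.78, below all arrays of the other lines. RIL71 lay above RIL54 at silking, overlapped it at tassel and lay below RIL99 at both stages.

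In RIL118 minus the favorable lines, which uses the same RIL99 and RIL54 arrays, 3 of the 11 genes were called higher and 0 lower (by limma's adjusted p, and also 0 at an unadjusted p under 0.05), against backgrounds of 11.7% higher and 8.92% lower over the whole table. These were aoc1 on the A1_at probe set by 0.67 (SE 0.18, adjusted p = 0.0216), opr8 by 0.31 (SE 0.09, adjusted p = 0.0383) and opr7 by 0.23 (SE 0.08, adjusted p = 0.0496). The opr8 and opr7 calls were lost in 17 and 23 of 29 alternatives, and with the replicate number as a block 1 gene was called in place of 3. The other aoc1 probe set had -0.11 (adjusted p = 0.449), and without RIL99 the first had 0.16 (adjusted p = 0.575). hpl1 had 0.87 (SE 0.43, adjusted p = 0.172).

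A second list held 7 defence genes known from wounding, herbivory or infection in maize. At silking 3 were called lower, where 26.8% of all probe sets were, and 0 higher (also 0 at an unadjusted p under 0.05), where 40.9% were. The 3 were prp2 (a pathogenesis-related protein), rip2 (a ribosome-inactivating protein) and bx6 (an enzyme of benzoxazinoid synthesis). prp2 had -5.55 (adjusted p = 2.85e-06 in limma) and was lower in 5 of 5 lines. bx6 had -0.56 (adjusted p = 0.0414), and -0.19 without RIL54 (adjusted p = 0.531). rip2 had -1.03 (adjusted p = 0.00319), but its fall came from RIL39 (-1.81) and RIL71 (-3.00). The rip2 difference was -0.34 in RIL118, -0.02 in RIL99 and 0.02 in RIL54, where all arrays stayed between 2.12 and 2.86. wip1, the wound-induced proteinase inhibitor, had -0.92 (adjusted p = 0.0677) and was lower in 5 of 5 lines. igl1, which makes free indole, had 0.08 (adjusted p = 0.347). In the bin 6.06 comparison bx1 and bx6 were called higher, against backgrounds of 9.91% higher and 8.43% lower, and 4 genes were not called, wip1 among them with 1.26 (SE 0.47, adjusted p = 0.0832). rip2 is left out of this count because it passed the level filter only through RIL39 and RIL71. It had 4.52 to 8.82 in the arrays of those lines and 2.14 to 2.19 in those of RIL99 and RIL54. bx1 was higher by 3.14 (SE 0.53, adjusted p = 0.00102 in limma) and bx6 by 2.66 on the S1_a_at probe set (SE 0.25, adjusted p = 7.52e-06). On that probe set RIL71 minus RIL39 was -1.34 (adjusted p = 0.0219) and RIL54 minus RIL99 was 1.44 (adjusted p = 0.0161). On the other bx6 probe set neither was called. For bx1 they were -1.94 and 1.75, neither called, and the RIL54 tassel arrays had 4.89 and 9.35. In RIL118, where 11.7% of all probe sets were called higher, bx1, which opens benzoxazinoid synthesis, bx6 on the S1_a_at probe set (1.35, adjusted p = 0.00944, against 0.85 and 0.105 on the other) and the chitinase gene chn1 (1.27, SE 0.30, adjusted p = 0.011) were higher. Without RIL99 the calls of bx6 (0.63, adjusted p = 0.279) and chn1 (0.91, adjusted p = 0.128) were lost, as they were without the first RIL118 silking array for bx6 (0.0523) and without the second for chn1 (0.062). In this comparison wip1 had -0.45 (adjusted p = 0.614).

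Among 957 tested probe sets with a single named gene other than a lipoxygenase, the one most like lox1 over the 20 arrays was nph1, the blue light receptor phototropin (r = 0.91 over 20 arrays, 0.96 over the 10 group means and 0.87 without RIL99). It ran from 9.15 to 10.94. The next were aldh2, an aldehyde dehydrogenase (r = 0.82), LOC732827 (0.81), the tonoplast aquaporin TIP4-1 (0.79) and MRP2, a transporter of the ABC family (0.77). Over the 10 group means see2b, a protease gene named for senescence, joined them (r = 0.90). The lowest correlations were those of gst5, a glutathione transferase (-0.82), 9-24 (-0.78), CPPS2 (-0.78), the heat shock gene hsp18f (-0.74) and the glutamine synthetase gene Gln1-4 (-0.74). For lox3 the probe sets most like it, named outside the rule and after their values were seen, were mir2, a cysteine protease (r = 0.83), HMG I/Y-2 (0.74) and hpl1 (0.71). Without the RIL99 arrays these were 0.64, 0.22 and 0.50. The arrays share lines, stages and the normalization, so these correlations are descriptions.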

How the data were processed

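Biotin-labelled total RNA of 20 maize ear internode samples was measured on an Affymetrix maize array. The deposited table gives a log2 value per probe set and array, made by the authors with GCRMA per the submitters' processing notes (version not given); these values ran from 1.37 to 15.2 and were used as they were. Of 17555 maize probe sets, 179 control probe sets being left out, 11033 had a log2 value above 5 in at least 2 arrays and were tested. A mean for each of the 10 groups of line and stage was fitted in limma 3.58.1 under R 4.3.3 (lmFit, eBayes), with 10 residual and 2.37 prior degrees of freedom, and Benjamini-Hochberg adjustment over all 11033 at 0.05. Lines and stages were weighted equally. Whether equal replicate numbers mark paired arrays was not settled. Over 45 pairs of groups the correlation of their deviations ran from -0.436 to 0.512, with 16 above 0.1. The main fit used no pairing. The stage contrast of the fit was tried on simulated data with independent noise and a stage shift shared by all lines. That trial does not bear on the line comparisons, single lines or interactions. Replicate arrays correlated at 0.934 (RIL118 at tassel) to 0.994, and the number of arrays limits the precision. Only in RIL118 at tassel was this below the highest correlation with an array of another group (0.939). Named genes were all lipoxygenase and list members, and the 5 probe sets most and least like the brightest lipoxygenase probe set. Names and chromosomes came from the platform annotation and RefSeq (Zm-B73-REFERENCE-NAM-5.0). The members and lists were chosen with earlier results of these data known. Alternatives changed the filter, normalization, prior, block, RNA amount and arrays or lines left out.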

Additional observations from a re-analysis of the deposited data

Results flagged for a closer look

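Of the 18 groups of 4 to 10 arrays examined, 2 held an array that stood far from the rest. Chance alone marks about 1 group in 20 where groups are independent and uniform. These groups share arrays, pool lines and include both lox1 probe sets, so that rate is no measure for them. Both flags concern lox3 in the bin 6.06 lines, and both arrays are of RIL71. At early silking 1 array had 7.64 while the other 3 lay between 7.04 and 7.05. At emerging tassel 1 array had 8.80 while the other 3 lay between 7.12 and 7.39. The lox3 stage change (silking minus tassel) ran in opposite directions between lines without overlap of the arrays, with 1.12 in RIL99 against -0.21 in RIL39 and -1.27 in RIL54. These 3 lines were not compared pairwise, and the test over all 5 lines gave an adjusted p of 0.243 in limma.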

How the results depend on the processing

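The 39 lipoxygenase results had 1152 values under the alternatives. Of these 1087 kept their direction and side of the threshold (for lox3 in the untested bin 6.06 comparison, moved by less than the spread), 13 lost a call, 19 gained one, 2 moved further and 31 changed sign, 0 of these 31 in the 6 called results. Causes were not tested. Whether the replicate numbers pair arrays was not settled. With them as a block, lox3 within RIL54 was called (-1.27, adjusted p = 0.0486 in limma) and no other lipoxygenase call changed. The oxylipin genes called higher in RIL118 were then 1 in place of 3. With RNA amount as a covariate, lox1 lost its stage call (0.27) and its RIL99 call (0.73). Without RIL99, chosen after seeing the data like RIL54 below, lox1 lost its stage call (0.27) and lox3 its RIL118 call (1.27). lox3 in the bin 6.06 comparison was then 0.95, and the class by stage terms turned positive (lox3 0.85, lox1 0.0285 and 0.0646). Without RIL54, lox3 gave 2.86 in that comparison, 0.15 for stage and -0.82 for RIL118 by stage, and lox1 gave 0.58 (called) in the bin 6.06 comparison and 0.18 and 0.24 in RIL118. Quantile normalization called lox1 in the bin 6.06 comparison (0.40), as did a trended prior (0.38), and gave 0.0175 and 0.0616 for lox1 in RIL118; RNA amount gave 0.00485 for its x_at probe set there. Leaving out single arrays, lox3 ranged from -0.31 to 0.0319 for stage, -1.46 to 0.19 within RIL71, -0.54 to 1.15 within RIL118, -1.42 to -1.12 within RIL54, -0.76 to 0.0649 for class by stage and -0.47 to 1.22 for RIL118 by stage. lox1 ranged from -0.16 to 0.41 within RIL39 (x_at -0.17 to 0.41), 0.73 to 0.996 within RIL99, 0.30 to 0.46 in the bin 6.06 comparison and -0.0963 to 0.0582 in RIL118 (x_at -0.0696 to 0.0669), and its x_at probe set from -0.0386 to 0.32 in RIL71 minus RIL39. Oxylipin genes called for stage numbered 0 to 3 higher and 0 to 6 lower, those in the bin 6.06 comparison 0 to 2 higher and 0 to 1 lower, and those in RIL118 0 to 3 higher and 0 to 2 lower, so these counts are weak. The stage calls of opr8, FAD8 and aos1 were lost in 21, 22 and 13 of 31 alternatives, and the RIL118 calls of opr7 and opr8 in 23 and 17 of 29. Few arrays per group, paralogs next to lox1 and lox3, and classes of 1 or 2 lines limit all of these values.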

Other observations

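The array holds 3 probe sets without a gene name here whose identifiers share the cluster number of the lipoxygenase probe sets. They were picked after their values were seen, carry no gene name and were not tested. The 1 that shares its number with the lox1 probe sets ran from 8.37 to 13.20. In RIL39 it had 12.25 and 12.09 at silking and 13.12 and 13.20 at tassel, in RIL54 10.76 and 9.76 at silking and 11.93 and 12.11 at tassel, and in RIL99 10.50 and 9.07 at silking and 9.49 and 8.37 at tassel. In RIL71 it had 10.79 and 9.99 at silking and 12.78 and 10.56 at tassel. In RIL118 it had 10.91 and 10.09 at silking and 10.82 and 12.11 at tassel. Its mean was thus lower at silking in every line but RIL99, whereas lox1 was higher at silking in every line. Its lowest array was a RIL99 tassel array, as for lox1 and lox3. The 2 that share the number of the lox3 probe set stayed between 1.97 and 2.04 in all 20 arrays.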
